A study of Mus musculus with 24 samples.

Results

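The regions described here are candidate enhancers of normal granulocyte-monocyte progenitors (GMP) that were also listed in the k+ leukemia catalogue and were missed by the k- leukemia catalogue. They were chosen by overlap of 3 deposited region lists: a whole GMP region on chromosomes 1 to 19 (chromosome 11 below position 3100000 left out) was taken when it shared at least 1 bp with a k+ region and none with a k- region. Of the 3164 GMP regions on these chromosomes, 246 met the rule, which is 7.77% (exact Clopper-Pearson 95% interval 6.87 to 8.76%), and the whole GMP list held 3332 regions. Since the overlaps chose the regions, their presence in k+ and absence from k- is no finding. The values below describe 3 lists without replicates, so no test between classes was made, and the intervals cover counting error only. They are too narrow where neighbouring regions depend on each other.

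The lists came from a ChIP-seq study of C57BL/6 mouse cells with bone marrow as their source. It compared GMP, the normal progenitors of granulocytes and monocytes, with leukemia stem cells (LSC) and mature leukemia cells (mAML). In its first part, each of the 3 populations had 4 libraries, for H3K27ac, H3K4me1, H3K4me3 and input, and no treatment is given. In its second part, the p300 and CBP acetyltransferase inhibitor A-485 was given to LSC, with H3K27ac, P300 and input libraries after 0, 24, 48 and 72 hours; the titles of these H3K27ac libraries read H2K27ac, while their antibody field reads H3K27ac. Per the labels' protocols, the leukemia was a murine MLL-AF10 one, cultured in RPMI with serum and medium conditioned by WEHI cells. No fusion is mentioned for GMP. Each of the 24 groups held 1 sample. The labels give no age and no number of animals, and they do not say how the fusion was introduced, so how many independent leukemias lie behind the leukemia lists is unknown. The labels also do not define k+ and k-, so these names are used as they stand. Since the lists hold positions alone, neither the identity of the cells nor the strength of any region could be checked against marker genes or signal.

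Enhancers are stretches of regulatory DNA that bind transcription factors and act on promoters at a distance. H3K4me1 marks primed and active enhancers, and H3K27ac, which p300 and CBP deposit, marks the active ones. MLL fusion proteins keep a progenitor-like gene programme switched on in leukemia cells. GMP are a stage from which such fusions are known to start leukemia. In ChIP-seq, the edges of a region depend on where its signal falls below the calling threshold.

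The regions made up a small class of the GMP catalogue. Of the 3164 GMP regions, 39.5% met k+ and 49.5% met k-. The class kept in both leukemia lists held 1003 regions, the class kept in k- only held 562, and 1353 met neither list. Of the 1249 GMP regions met by k+, k- missed 246, or 19.7% (17.5 to 22.0%). In the other direction, k+ missed 562 of the 1565 GMP regions met by k-, or 35.9% (33.5 to 38.3%). The k- list was the longer of the pair, with 13856 regions against 9404 in k+. A longer list has more chances to meet a given region, and the part of list length in these shares was not tested. Together the 246 regions covered 180 kb, against 974.2 kb for those kept in both lists.

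In width the regions lay between those kept in both lists and those lost. They measured 200 to 4200 bp, with a median of 600 bp and quartiles of 400 and 1000 bp. The median was 600 bp for regions kept in k- only as well, 800 bp for those kept in both lists and 400 bp for those met by neither. A width of at least 1000 bp was found in 28.5% (22.9 to 34.5%) of the regions kept in k+ only, 25.4% (21.9 to 29.3%) of those kept in k- only, 42.6% (39.5 to 45.7%) of those kept in both lists and 13.7% (11.9 to 15.6%) of those lost. All positions lie on a grid of 200 bp, and 52 of the 246 regions were a single grid step wide.

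The share of GMP regions kept in k+ only varied little with width. Of the 725 GMP regions 200 bp wide it took 7.17% (5.40 to 9.30%), and of the 441 that were 600 bp wide 9.75% (7.15 to 12.9%). Of the 219 GMP regions with a width from 1800 bp upwards it took 6.85%. Across the same widths, the share kept in both lists rose from 17.0% to 66.2% and the share met by neither fell from 60.3% to 10.5%. The share kept in k- only was likewise level, between 15.6% and 20.0%. Among GMP regions that k+ met, the part that k- missed was 29.7% (23.1 to 37.1%) at 200 bp and 9.38% (5.34 to 15.0%) at 1800 bp or more. Width by itself changes the chance of an overlap with either list, and its part in these shares was not tested.

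**Figure D1:**
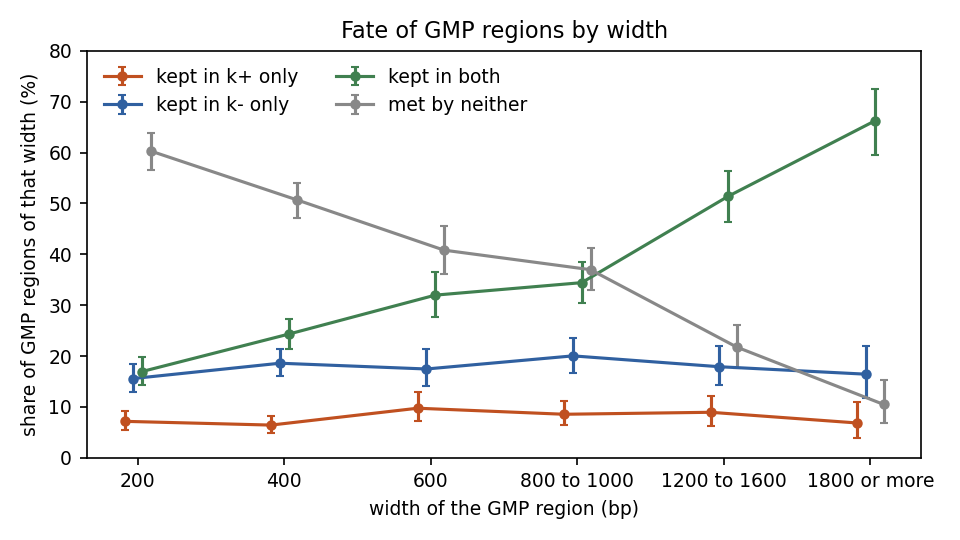
Share of GMP regions (%) kept in k+ only, kept in k- only, kept in both leukemia lists or met by neither, against the width of the GMP region (bp). Points are shares of all GMP regions of that width and bars are exact 95% intervals; the share kept in k+ only stays between 6.44% and 9.75%, while the share kept in both rises and the share met by neither falls.

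Counting regions of every width, most of those kept in k+ only were covered by k+ over their whole width. Part of this was fixed by the 200 bp grid: 52 of the 246 regions were 200 bp wide, and any overlap covers such a region completely. The k+ list covered 143 of the 246 regions completely, or 58.1% (51.7 to 64.4%), and at least 50% of the width in 198 of them. The shared stretch measured 200 to 2200 bp with a median of 400 bp, and 96 regions shared 200 bp, the smallest step possible. In all, 65.2% of their base pairs lay in k+, against 76.2% for regions kept in both lists. Of the regions kept in k- only, 70.4% of the base pairs lay in k-. Complete cover was more frequent in these classes. It was 63.5% by k+ for regions kept in both lists and 63.9% by k- for those kept in k- only. The share of 200 bp regions, which are always covered completely, differed between classes. It was 21.1% for regions kept in k+ only, 12.3% for those kept in both and 20.1% for those kept in k- only. The size of the difference in complete cover thus depends on these regions. The k+ region over the regions kept in k+ only was usually the wider of the pair. It was wider than the GMP region in 167 cases, equally wide in 17 and narrower in 62. In 134 cases the GMP region lay inside a wider k+ region, in 9 the coordinates were identical, in 41 the k+ region lay inside the GMP region, in 56 it covered 1 end, and 6 GMP regions were met by 2 k+ regions each.

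The widest regions were mostly those of which k+ held a small part. The widest, on chromosome 11 in band qB5 from 79340401 to 79344600, measured 4200 bp and shared 1000 bp with k+. A k+ region of 3000 bp reached over its left end, and a k- region of 2200 bp ended at position 79340400, directly beside it. The next, on chromosome 2 in band qE1 from 90921801 to 90924400, measured 2600 bp and held a k+ region of 400 bp, while k- regions lay 400 bp to the left and 1200 bp to the right. Of the 3 regions of 2400 bp, the one on chromosome 2 in band qA1 from 6626801 to 6629200 shared 2200 bp with 2 k+ regions and touched a k- region at its right end. The one on chromosome 12 in band qD2 from 88668601 to 88671000 shared 200 bp, or 8.33% of its width, and had its nearest k- region 51.8 kb away. The one on chromosome 8 in band qA1.3 from 19880601 to 19883000 shared 600 bp and lay 107.2 kb from k-, with 3 more GMP regions inside 10 kb and no further k+ or k- region.

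The remaining 5 of the 10 widest regions measured 2000 or 2200 bp. On chromosome 16 in band qB3, 1600 of the 2200 bp from 33785401 to 33787600 lay in k+, and on chromosome 4 in band qC6, 1600 of the 2000 bp from 102603001 to 102605000 did. For the other 3, on chromosome 11 in band qE1 from 106329401 to 106331600, on chromosome 16 in band qA3 from 19833001 to 19835000 and on chromosome 4 in band qB2 from 52929001 to 52931000, the shared stretch was 400 or 600 bp. Thus k+ covered 27.3% or less of the width in 7 of the 10 widest regions. The regions sharing the most with k+ were the one in band qA1 of chromosome 2, with 2200 bp, and one on chromosome 9 in band qA4 from 32315601 to 32317400, all of whose 1800 bp lay in k+. A further 5 regions tied at 1600 bp: those in bands qB3 of chromosome 16 and qC6 of chromosome 4, and 3 that were 1600 bp wide and lay entirely in k+. Of these 3, the one on chromosome 13 in band qA4 from 42196001 to 42197600 lay 3.8 kb from k-. The other two, on chromosome 17 in band qE4 from 88950001 to 88951600 and on chromosome 6 in band qD1 from 86421601 to 86423200, touched k- and had k+ partners of 2200 bp that overlapped it.

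Although no base pair of these regions lay in k-, a k- region was often directly beside them. The distance to the nearest k- region ranged from 0 to 403400 bp, with a median of 1500 bp and quartiles of 200 and 18500 bp. At 0 bp, touching without overlap, stood 51 of the 246 regions, or 20.7% (15.8 to 26.3%). Within 1 kb of k- were 115, or 46.7% (40.4 to 53.2%), within 10 kb 160, or 65.0%, and 86 lay farther away. The name "kept in k+ only" thus holds at the base pair for all 246 regions, while 46.7% of them had a k- region no more than 1 kb off.

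The corresponding distances were longer for the other classes. Of the 562 regions kept in k- only, 8.72% (6.52 to 11.4%) touched a k+ region and 30.4% (26.6 to 34.4%) had one within 1 kb, with a median distance of 8300 bp. Of the 1353 regions met by neither list, 8.80% (7.34 to 10.4%) touched a k- region and 27.4% (25.1 to 29.9%) had one within 1 kb. The k- list covers more of the genome than k+, 16857 against 10365 kb. With k- cut to its 9404 widest regions, as many as k+ holds, the rule chose 290 regions, 44 of them outside the 246. Of the 290, 32.4% had a k- region within 1 kb. This cut evens the number of regions and not the kb covered. The part of list length in the difference from regions kept in k- only was not tested further. For lost regions the reference is the same k- list, but these regions were also chosen for missing k+. Of the GMP regions met by k+, 80.3% met k-, against 29.35% of those that k+ missed, so missing k+ went with missing k-. The part of that choice in the difference from lost regions was not tested.

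**Figure D2:**
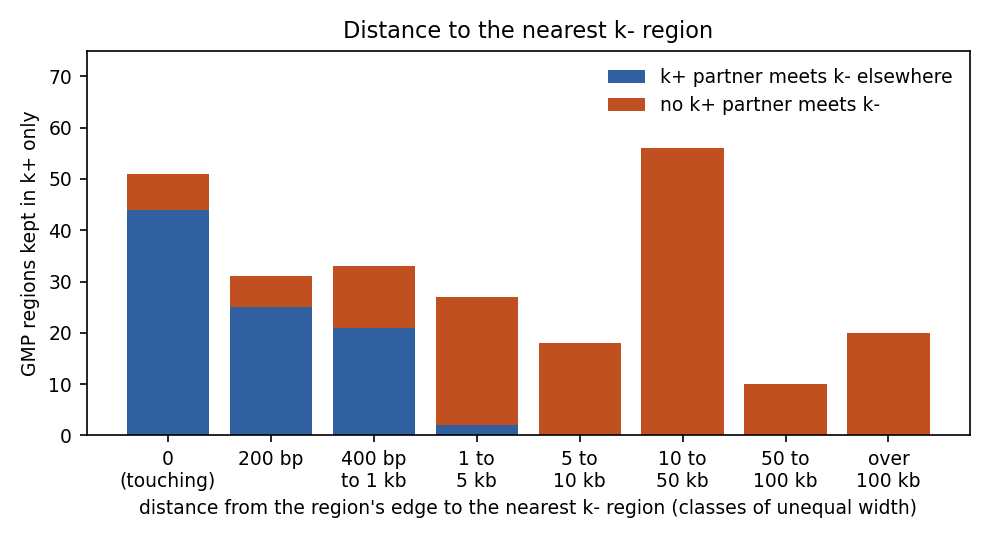
Number of GMP regions kept in k+ only by distance from their edge to the nearest k- region, in distance classes of unequal width. Blue marks regions whose k+ partner itself overlaps k- elsewhere and orange those without such a partner; 51 regions touch k- and 20 lie more than 100 kb from it, and blue is found below 5 kb only.

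Around the regions, k- cover rose just outside their edges. In the first 200 bp beyond an edge, 58.1% of the 492 flanks lay in k+ and 10.6% in k-. Between 600 and 800 bp from the edge, 20.1% of flanks lay in k- and 29.7% in k+. From 4800 to 5000 bp the values were 7.11% for k- and 6.50% for k+. The cover by k- was thus highest at a short distance from the regions, at 2.83 times its value in the outermost 200 bp. A rise in k- was also seen beside lost regions, which miss k- as well. Of their flanks, 4.51% lay in k- in the first 200 bp, 8.94% between 800 and 1000 bp and 5.17% at 4800 to 5000 bp. Flanks of regions kept in k- only had the same shape for k+ at a lower level, with 4.63% in the first 200 bp, 10.6% between 600 and 800 bp and 5.34% at 4800 to 5000 bp. Cover close to the edge is limited by the rule, because a k- region that reached any further would have met the GMP region.

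**Figure D3:**
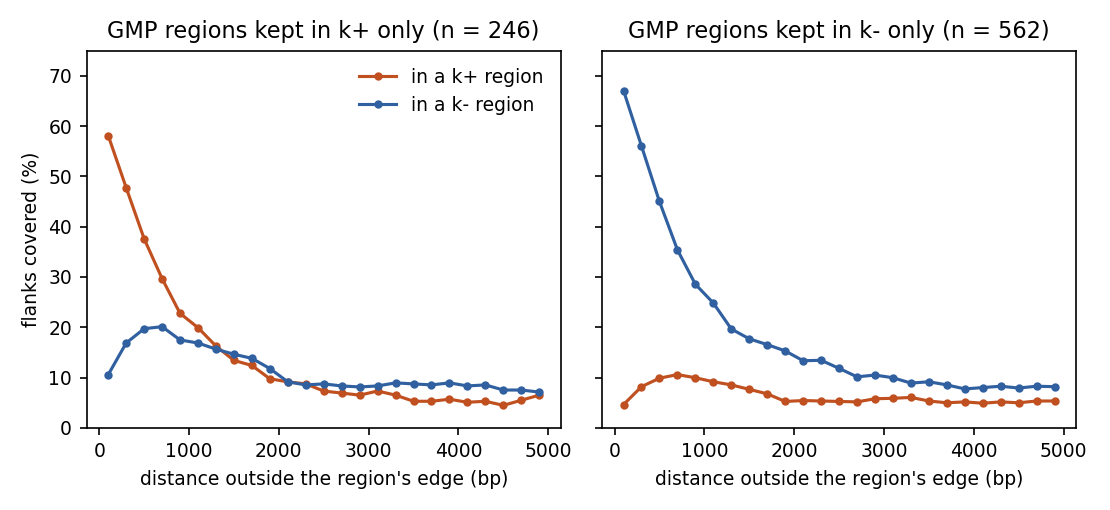
Share of flanks (%) lying in a k+ region (orange) or a k- region (blue) against distance outside the edge of the GMP region (bp), for the 246 regions kept in k+ only and the 562 kept in k- only, both flanks counted. Beside regions kept in k+ only, k- cover rises from 10.6% at the edge to 20.1% at 600 to 800 bp and is 7.11% near 5 kb.

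The k+ regions that met them divided the 246 regions into 3 kinds. In 92, or 37.4% (31.3 to 43.8%), the k+ partner itself overlapped a k- region outside the GMP region. In 68, or 27.6%, no partner met k- but a k- region lay within 10 kb. In 86, or 35.0% (29.0 to 41.3%), no k- region lay within 10 kb. In the first kind, k- covered another part of the k+ region that met the GMP region, and 18 of the 92 GMP regions were only partly inside k+. The split itself favours short distances to k- and wide partners in the first kind, because k- has to lie within reach of the partner.

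Regions of the first kind were narrow and lay under wide k+ regions. Their median width was 400 bp under k+ partners with a median of 2000 bp, and 74 of the 92 lay wholly inside k+. Their median distance to k- was 200 bp, the largest was 2600 bp, and 44 of them touched k-. The k- list covered 200 to 5000 bp of these partners, with a median of 40.0% of the partner's width. The other 154 regions had a median width of 600 bp and partners with a median of 800 bp, and k+ covered 69 of them completely. Their median distance to k- was 13700 bp, with quartiles of 2100 and 36950 bp. Of the regions kept in k- only, 145, or 25.8% (22.2 to 29.6%), had a k- partner that overlapped k+. That value refers to the shorter k+ list, and the part of list length in its difference from 37.4% was not tested.

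Counted as k+ regions, the partners numbered 242, of which 89, or 36.8% (30.7 to 43.2%), met k-. The share was 97.7% (96.5 to 98.6%) for the 917 k+ regions that met a GMP region kept in both lists and none of the 246, which the rule for that class largely fixes. It was 57.5% (56.5 to 58.6%) for the 8134 k+ regions that met no GMP region, a class the k- list did not define. The 242 partners were reached through GMP regions chosen for absence from k-, and the part of that choice in the difference was not tested. The 242 partners were of intermediate width: their median was 1200 bp, against 1600 bp for partners of regions kept in both lists and 600 bp for k+ regions with no GMP region. Of the 242, 18 met at least 2 GMP regions and 10 met a GMP region kept in both lists as well.

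In 35 regions, or 14.2% (10.1 to 19.2%), k- regions lay within 1 kb on both sides, and 80 more had k- within 1 kb on 1 side. Of the regions kept in k- only, 24, or 4.27% (2.76 to 6.29%), had k+ that close on both sides. The k- list covers more of the genome than k+, 16857 against 10365 kb, and the part of this in the difference was not tested. The gap in k- that held each of the 35 regions measured 600 to 2600 bp with a median of 1400 bp. In 15 of the 35 a single k+ region bridged the gap and met both flanking k- regions. The clearest by shared length was the region on chromosome 9 in band qA4 named above. It filled positions 32315601 to 32317400, a k- region of 1800 bp ended at its left edge, and another of 1800 bp began 200 bp past its right edge at 32317601. A k+ region of 5400 bp ran from 32313801 to 32319200, over the whole GMP region and into both k- regions. Within 10 kb of it lay 5 k+ regions and 6 k- regions, the bridging one included, and 1 further GMP region.

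**Figure D4:**
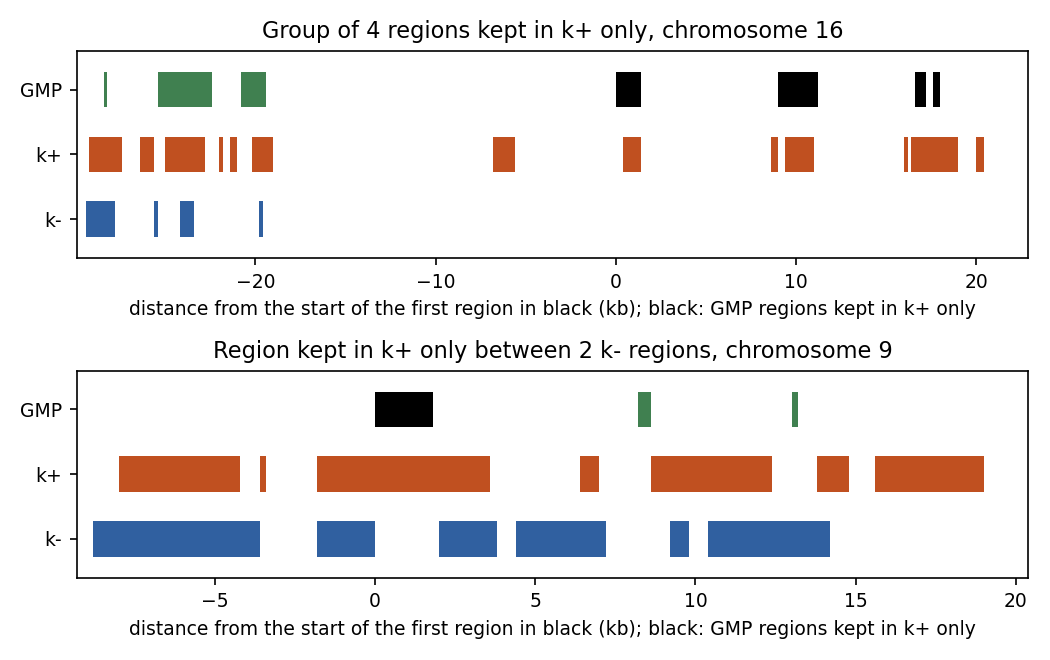
Regions of the GMP, k+ and k- lists at a group of 4 GMP regions kept in k+ only on chromosome 16 (top) and at a region kept in k+ only on chromosome 9 (bottom), as distance in kb from the start of the first region in black; each bar is a listed region drawn to scale and black bars are GMP regions kept in k+ only. On chromosome 16 the nearest k- region ends 19.6 kb before the group, and on chromosome 9 k- regions of 1800 bp flank the region on both sides.

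At the other end of the range, 30 regions (12.2%) lay more than 50 kb from any k- region and 20 (8.13%) more than 100 kb. Such distances were less frequent here than in other classes. Within 50 kb of k- lay 87.8% of the regions kept in k+ only and 74.1% of the lost ones. Of those kept in k- only, 74.2% lay within 50 kb of k+, the shorter list. In the sets of 30 and 20 regions alike, the k+ partners had a median width of 800 bp, equal to the median of the whole k+ list. The median share of the GMP region covered by k+ was 66.7% in each set. Of the 30, 5 had a further k+ region within 10 kb and 7 had a further GMP region there. The farthest, on chromosome 10 in band qD3 from 125939601 to 125940000, was 400 bp wide inside a k+ region of 1200 bp, 403.4 kb from k- and 402.2 kb from the next GMP region. A pair followed on chromosome 5 in band qC3.3, with 400 bp from 76126001 to 76126400 and 600 bp from 76127401 to 76128000, at 317.4 and 315.8 kb from k-. The first of the pair shared 200 bp with a k+ region of that width, and the second lay inside a k+ region of 1600 bp. On chromosome 5 in band qB3, the region from 44538001 to 44538600 lay inside a k+ region of 1600 bp and 261.6 kb from k-. On chromosome 7 in band qB1, 1200 of the 1800 bp from 30792801 to 30794600 lay in k+, at 256.2 kb from k-. These places had k+ and GMP regions with no listed k- region over distances many times the size of any region.

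A few of the regions lay together. Joined at up to 10 kb, 27 of the 246 formed 12 groups, of which 10 held 2 regions. None of the 12 spans held a k- region, but the rule keeps k- out of the regions themselves. Only the gaps between them could have held one. The group with the most regions, on chromosome 16 in band qB3 from 33776401 to 33794400, held 4 regions of 1400, 2200, 600 and 400 bp. It held no other GMP region in 18.0 kb. The 5 k+ regions that met this span measured 5800 bp in all, and the last of them ended past the group, at 33795400. The nearest k- region, of 200 bp, ended 19.6 kb before the group. That k- region and 3 others lay among 3 further GMP regions, of 200, 3000 and 1400 bp, all of which met both leukemia lists. The GMP regions on the left of the locus were thus kept in both lists and those on the right in k+ only.

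The group of 3 held regions of 200, 600 and 200 bp on chromosome 11 in band qC from 83252401 to 83253800. They were separated by 200 bp each, lay under 1 k+ region of 2000 bp and were 14.6 kb from k-. Of the 10 groups of 2, the 3 with the shortest span are given, ties in span by lower start; a further group on chromosome 11 in band qB3 from 68677001 to 68677800 tied with the last of them. The first was 2 regions of 200 bp on chromosome 11 in band qE2 from 115019001 to 115019600, which lay under 1 k+ region of 1400 bp, also 14.6 kb from k-. On chromosome 8 in band qA4 from 34785601 to 34786400, regions of 200 and 400 bp lay under a k+ region of 4800 bp and 600 bp from k-. On chromosome 12 in band qC1 from 55505801 to 55506600, regions of 400 and 200 bp lay under a k+ region of 1600 bp with k- on both sides, 200 bp away. Regions under the same k+ region share their evidence for being kept, and they are not independent cases.

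Other GMP regions were about as frequent near them as near lost ones, while k+ and k- regions were more frequent near them than near lost ones. Another GMP region lay within 10 kb of 84 of them, or 34.1% (28.2 to 40.4%), against 42.8% (39.7 to 45.9%) of regions kept in both lists, 32.7% (28.9 to 36.8%) of those kept in k- only and 31.2% (28.7 to 33.7%) of those lost. A further k+ region, not their own partner, lay within 10 kb of 52.4% (46.0 to 58.8%) of them, against 59.1% for those kept in both lists, 52.7% for those kept in k- only and 36.1% (33.6 to 38.8%) for those lost. A k- region, again with own partners set aside, lay that close to 65.0% (58.7 to 71.0%) of them, against 69.1% (66.1 to 71.9%) of those kept in both lists, 58.4% (54.2 to 62.5%) of those kept in k- only and 48.4% (45.7 to 51.1%) of those lost. More k- than k+ regions were found within 10 kb of 45.1% of them and more k+ than k- of 19.1%. The tilt to k- was common to all classes, with 37.1% against 22.5% for regions kept in both lists, 29.7% against 26.2% for those kept in k- only and 31.1% against 11.5% for those lost. For regions kept in k+ only, setting partners aside removes k+ regions alone.

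The GMP regions around them were of mixed fate. Counting pairs of a region and a GMP neighbour within 10 kb gave 121 pairs. The neighbour was lost in 40 pairs (33.1%), kept in both lists in 36 (29.8%), kept in k+ only in 34 (28.1%) and kept in k- only in 11 (9.09%). Of all GMP regions these classes made up 42.8%, 31.7%, 7.77% and 17.8%. The 34 pairs are 17 distinct ones, since each pair of regions kept in k+ only is counted from both sides, while pairs with other classes are counted from 1 side. Several of the 17 lay under the same k+ region, as in groups named above, so a single k+ region put both regions in the class. For both reasons, 28.1% is not directly comparable with 7.77%. A neighbour kept in both lists was found beside 30 of the 246 regions and a lost one beside 36. One kept in k- only stood beside 11.

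The deposited classes treated all 246 as maintained. Each held at least 1 piece of the authors' maintained list, 252 pieces and 117400 bp in all. The regions also formed 252 pairs with k+ regions and shared the same 117400 bp with k+. In number and bp the maintained pieces thus repeat the overlap that chose the regions, and they are no separate evidence. None met the lost or the gained list, which is no separate evidence either. A gained region lay within 10 kb of 152 of them, or 61.8% (55.4 to 67.9%), against 66.9% of regions kept in both lists, 59.4% (55.2 to 63.5%) of those kept in k- only and 50.2% (47.5 to 52.9%) of those lost.

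The regions lay on all 19 autosomes. Chromosome 11 held the most, 28 of its 222 GMP regions, or 12.6% (8.55 to 17.7%), followed by chromosome 10 with 22 of 203, or 10.8% (6.92 to 15.9%). The lowest shares were on chromosome 18, with 3 of 92, or 3.26% (0.678 to 9.23%), and chromosome 7, with 7 of 178, or 3.93% (1.60 to 7.93%). Chromosome 11 was the only one of the 19 whose interval did not include 7.77%, 1 of 19 intervals examined. The 28 regions were spread from 5.40 to 115.02 Mb. Of these, 8 had a k+ partner that met k- and 14 were more than 10 kb from k-. Counting groups of neighbouring regions once moved the part of all regions on chromosome 11 from 11.4% to 10.4%.

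**Figure D5:**
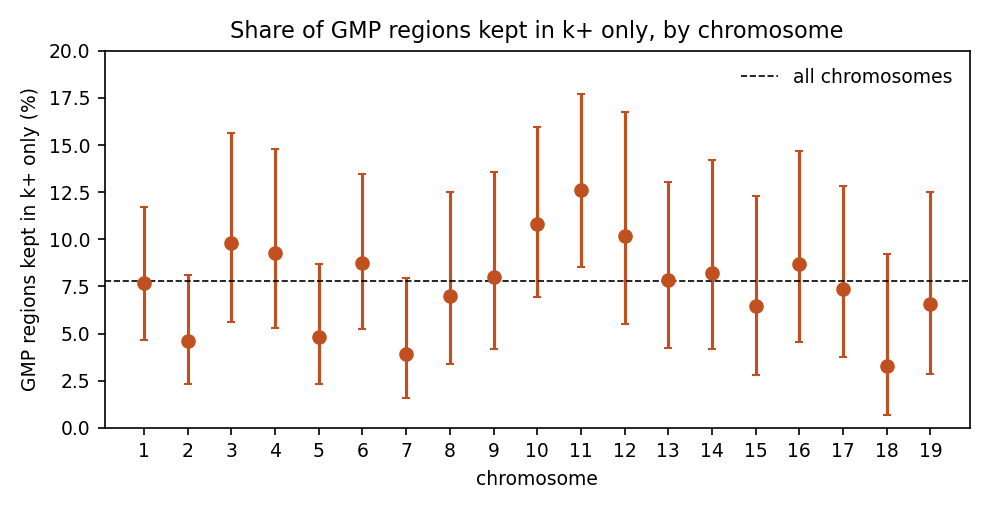
Share of GMP regions kept in k+ only (%) on each of the 19 autosomes, with exact 95% intervals and the share over all chromosomes as a dashed line. Chromosome 11, at 12.6%, is the only one whose interval lies off the line.

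The threshold of 1 bp acted in steps of 200 bp. Just inside it were the 96 regions that shared 200 bp with k+, of which 44 were wider than 200 bp and 52 lay wholly in k+, and the 51 that touched k-. Just outside it on the k- side were 182 of the 1003 regions kept in both lists that shared 200 bp with k-, of which 59 were wider than 200 bp. Just outside it on the k+ side were 72 lost regions that touched a k+ region, 26 of which lay more than 1 kb from k-.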

How the data were processed

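The authors deposited 6 region lists for the whole series, each giving positions in 3 columns (chromosome, start, end); with 0 score or count columns, read depth is unknown. The submitters' processing notes name BWA, Picard, MACS2, HOMER, deepTools and build mm9. Settings, versions, the enhancer rule and any pooling were not given in the sources used here. Positions are mm9, counted from 1.

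The GMP, k+ and k- lists were intersected with pandas 2.3.3 and NumPy 2.4.6 under Python 3.11.15. Intervals came from SciPy 1.17.1 and plots from matplotlib 3.10.9. bedtools 2.31.1 returned the same 246 regions. Distances run from edge to edge. Bands came from circlize 0.4.16 and chromosome lengths from GenomeInfoDb 1.38.1 in R 4.3.3. On planted lists, the class of all 3164 regions was recovered.

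Regions named are the 10 widest, the 5 sharing most with k+ (7 with ties), the 5 farthest from k- and the 5 groups with the most regions (ties by shorter span, then lower start). The regions and all summaries were chosen with earlier results of these data known. Alternatives covered the overlap, k- distance, region definition, width minimum, list length and chromosomes. Genes, motifs and sequence were not analysed here, because an mm9 genome or annotation was not used here, nor was the read signal of the 24 libraries.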

Additional observations from a re-analysis of the deposited data

How the results depend on the processing

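Which regions count as kept in k+ only depended on how near k- may come. The 246 regions became 131 when k- had to be more than 1 kb away and 104 at more than 5 kb, 382 when all regions were cut to 500 bp either side of their midpoints (178 of them among the 246), and 155 when k+ regions that meet k- were left out. With regions of at least 800 bp it was 88, of 1159 GMP regions (7.59%), so the share stayed near 7.77% with fewer regions tested. Asking for 50% of both regions gave 215, but 62 of them were among the 246. The other alternatives gave 191 to 290. The median width was 800 bp at 50% of both regions. With k- more than 1 kb away, the median share covered by k+ was 80% in place of 100% and 1.53% of regions had a k+ partner that met k-, the latter by construction. A k- region within 1 kb was found for 39.8% when regions of at least 400 bp were used. With k- cut to its widest regions, as many as in k+, it was found for 32.4% of 290 regions. Another GMP region lay within 5 kb of 26.8% and within 25 kb of 49.2%. Of 28 alternative values 16 were classed as the same. A count was classed by its size alone, whichever regions it held, and any other value by lying inside the main interval. The 215 regions were thus classed as the same, though 153 of them were not among the 246. Asking for 200 bp of k+ in place of 1 bp could not change the count on the grid. Of the 28, 9 were added after seeing the data, among them all those on partners that meet k-, on k- within 1 kb and on chromosome 11. The lists hold no scores, so no calling threshold could be varied. Distances to start sites and motif shares were not run. No paired analysis was possible because every group holds 1 sample.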
